A study of Mus musculus with 9 samples.

Results

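The 57 genes described here encode the machinery that moves newly made proteins into the endoplasmic reticulum (ER) and carries them on to the Golgi. They were listed by name and role, with earlier results of these data known. Each was read from the array probe sets annotated to it. Of the 57 genes, 55 had a probe set of their own and were measured, among 18193 genes in all. The other 2, Srp54a and Sec61g, are covered only by probe sets that also match other genes and are given separately.

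The arrays measured total RNA of liver from male mice aged 14 weeks. The controls were 5 arrays from C57BL/KSlepr+/+ (BKS) mice, which carry the intact leptin receptor gene. The other group was 4 arrays from BKS.Cg-Leprdb (db/db) mice, which carry the db mutation of that receptor and are obese and diabetic with fatty liver. All mice had standard chow without restriction, and the series describes the groups as litter mates. Each array took 8 µg of RNA from a 100 mg aliquot of whole liver, and nothing in the labels says whether each array is a separate animal, so the p-values reflect only how far the samples differ, which may be technical.

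A protein with a signal sequence is caught by the signal recognition particle while still on the ribosome, brought to its receptor on the ER and threaded through the Sec61 channel. Signal peptidase then removes the signal sequence, and oligosaccharyltransferase attaches N-linked sugars to the growing chain. COPII-coated vesicles carry cargo from the ER towards the Golgi, COPI-coated vesicles return escaped ER proteins, and cargo receptors sort what is carried. Hepatocytes secrete albumin, clotting factors and lipoproteins by this route and depend on it heavily.

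In db/db liver 5 of the 55 measured genes fell and 0 rose. Those that fell were Rpn1, Spcs3, Sec61b, Sec61a1 and Ssr4, with differences of -0.92 to -0.46 on the log2 scale, and all of them act at the ER membrane where the chain enters. No gene of the COPII coat, the COPI coat or the cargo receptors passed the test. Calls were made with limma at a Benjamini-Hochberg adjusted p under 0.05 over all 18193 genes, on log2(signal + 16) values. Over all genes 5.49% passed, of which 2.6% fell and 2.89% rose, while 9.09% of the measured secretory genes fell. The difference between groups was negative in 41 of the 55 genes and positive in 14, with a median of -0.18 on the log2 scale. Over all genes the median was -0.0022, and 50.3% of differences were negative. These signs are those of the brightest probe set of each gene. Of the 35 secretory genes with over 1 probe set, 17 had probe sets that differed in sign. Over all 120 probe sets of the 55 genes, 79 differences were negative and 41 positive. At an unadjusted p under 0.05, 15 of the 55 were lower and 3 higher, beside 17.6% of all genes in either direction. In 7 of the 55 every db/db array lay below every BKS array, and in 1 every db/db array lay above. Over all genes these shares were 4.42% and 4.73%.

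**Figure D1:**
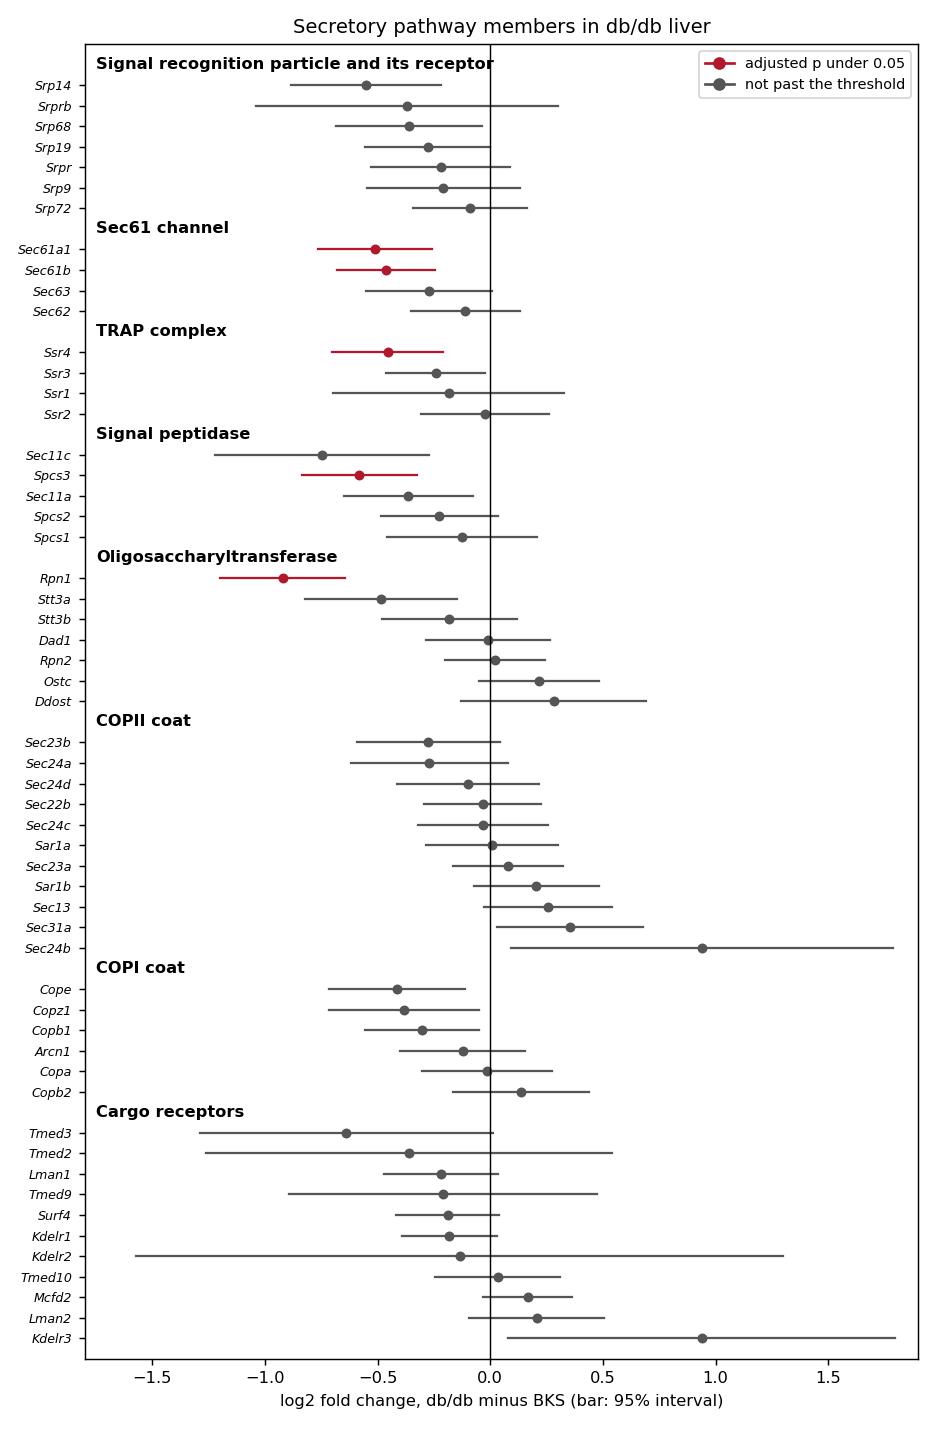
Each point is the log2 fold change (db/db minus BKS) of 1 measured gene with its 95% interval, grouped by role, and red marks an adjusted p under 0.05. The 5 red points all lie left of 0 and belong to the Sec61 channel, the TRAP complex, signal peptidase and oligosaccharyltransferase.

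The 5 calls depended on how the arrays were brought to a common level. With median centring in place of quantile normalization none of the 5 passed (Rpn1 -0.83, adjusted p = 0.105; the other 4 adjusted p = 0.279 to 0.513), and with no normalization between arrays only Rpn1 and Spcs3 did, with adjusted p of 0.00972 and 0.0244. Under both settings the 5 genes kept a negative difference.

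The arrays also fall into sets that the labels do not name. On 4 arrays (BKS 4, BKS 5, db/db 3 and db/db 4) the control probe sets for 18S ribosomal RNA reached 1873 to 19771 signal units, and on the other 5 arrays they stayed at or below 43.5. The low 18S set is thus 3 BKS and 2 db/db arrays and the high 18S set 2 and 2, so both groups can be compared within each set, and the values within sets are given beside the results below. The leptin receptor gene Lepr gave no check of the genotype: the db mutation alters its splicing, and its 4 probe sets had adjusted p of 0.288 to 0.856 by limma.

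The samples are bulk liver, so fewer cells of a type and less RNA per cell cannot be told apart. The 6 hepatocyte markers summed to 202963 to 215759 signal units on BKS arrays and 198612 to 219647 on db/db arrays, overlapping between the groups. The 5 measured markers of B and plasma cells, another secretory cell type, summed to 484 to 760 on BKS and 378 to 466 on db/db arrays, without overlap, and none passed the test alone. Their part in the results was not tested. Summed markers of Kupffer cells and macrophages (6104 to 17096 against 3860 to 9238), sinusoidal endothelium, stellate cells, cholangiocytes, T cells, pancreatic acinar cells and adipocytes overlapped between the groups. Of all markers only Asgr1, a hepatocyte receptor, passed the test, higher by 0.64.

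The signal recognition particle and its receptor were lower in db/db in 7 of 7 measured genes by the sign of the difference, and 0 of the 7 passed the test. The median difference was -0.28 on the log2 scale, and the range was -0.55 to -0.09. The largest was that of Srp14, which with Srp9 forms the domain that pauses translation. Its log2 signal was 12.63, 12.31, 12.60, 12.80 and 12.77 on BKS arrays 1 to 5 and 12.09, 11.68, 12.02 and 12.48 on db/db arrays 1 to 4. The groups overlapped through db/db 4, which lay above BKS 2. The difference was -0.55 (SE 0.15, adjusted p = 0.0550 by limma), and with the 18S set as a block it was -0.58 with an adjusted p of 0.0107. The 3 other Srp14 probe sets gave -0.24, -0.22 and -0.05, so the size rests on the brightest probe set.

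Srp9 differed by -0.21, and the scaffold proteins Srp19, Srp68 and Srp72, which hold the RNA and the signal-binding subunit, by -0.28, -0.36 and -0.09. Srpr, the receptor's GTPase subunit, differed by -0.22. Srprb, which anchors that subunit in the membrane, read 9.10, 8.88, 8.37, 10.23 and 9.73 on BKS arrays and 8.79, 9.15, 8.85 and 8.78 on db/db arrays. BKS 4 and BKS 5, both high 18S arrays, stood above all the others. Its difference was 0.19 within the low 18S set and -1.16 within the high 18S set, so its overall value of -0.37 (adjusted p = 0.610) combines opposite signs. The other Srprb probe sets gave 0.15 and -0.10. On them BKS 5, at 8.78 and 8.77, did not stand above all db/db arrays. Srp54a, the subunit that binds the signal sequence, was read only on 3 probe sets shared with Srp54b or Srp54c, which gave 0.23, 0.73 and 0.07 (adjusted p = 0.524 to 0.957).

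In the Sec61 channel 2 of 4 measured genes fell and all 4 differences were negative, with a median of -0.37. Sec61a1 encodes the pore through which the chain passes. Its log2 signal was 12.69, 12.68, 12.63, 13.01 and 13.03 on BKS arrays and 12.27, 12.21, 12.42 and 12.28 on db/db arrays. Every db/db array lay below every BKS array, and the high 18S arrays BKS 4 and BKS 5 were the highest. Sec61a1 fell by 0.51 on the log2 scale (SE 0.12, 1.42-fold lower, adjusted p = 0.0205 by limma). Within the low 18S set the difference was -0.42 and within the high 18S set -0.67. The adjusted p went above 0.05 when BKS 4, db/db 1, db/db 2 or db/db 4 was left out, at most 0.0564.

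The 6 probe sets of Sec61a1 did not move together. In 2 of them, the brightest and another with means of 11.21 and 10.70, the groups did not overlap and the difference was -0.51. The other 4 overlapped between groups and gave -0.72, -0.26, 0.18 and 0.33. With the mean over probe sets the Sec61a1 difference was -0.25 (adjusted p = 0.726).

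Sec61b, a small subunit beside the pore, has a single probe set. It read 12.87, 12.99, 12.86, 13.13 and 13.11 on BKS arrays and 12.62, 12.55, 12.50 and 12.46 on db/db arrays. All db/db arrays were below all BKS arrays, and the spread within groups (SD 0.13 and 0.07) was small beside the gap between the means. Sec61b fell by 0.46 (SE 0.10, 1.38-fold lower, adjusted p = 0.0157 by limma), with -0.32 within the low and -0.64 within the high 18S set. Without db/db 3 the adjusted p was 0.0538. Sec62 and Sec63, membrane proteins that help chains enter after translation and recruit the ER chaperone, differed by -0.11 and -0.27 and did not pass. Sec61g, the third subunit, was read only on a probe set shared with 2 predicted genes, at 12.99 in BKS and 12.70 in db/db (difference -0.28, adjusted p = 0.292).

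**Figure D2:**
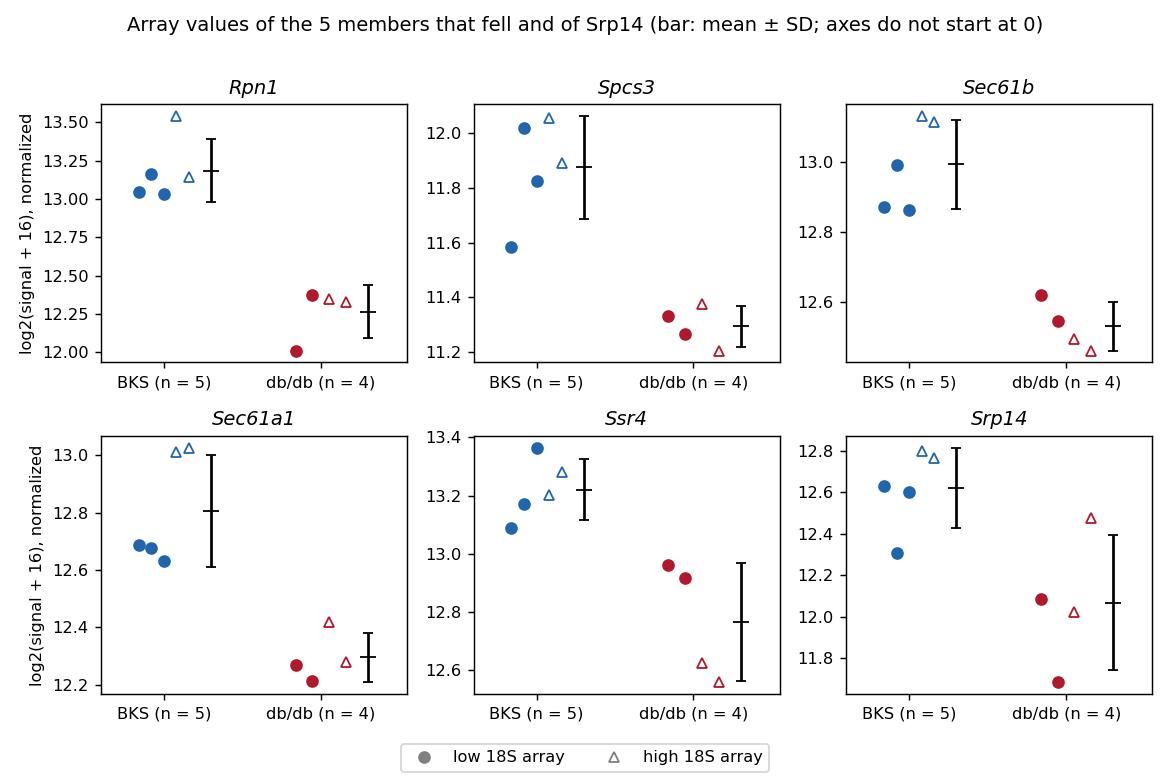
Points are the log2(signal + 16) values of single arrays for the 5 genes that fell and for Srp14, filled for low and open for high 18S arrays, with the mean and SD of each group beside them; the axes do not start at 0. For the 5 genes that fell, no db/db point reaches the lowest BKS point, while for Srp14 db/db 4 at 12.48 lies above BKS 2 at 12.31.

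The TRAP complex sits beside the Sec61 channel and helps certain chains enter it. All 4 of its genes had negative differences (median -0.21), and 1 fell. Ssr4, the delta subunit, read 13.09, 13.17, 13.36, 13.20 and 13.28 on BKS arrays and 12.96, 12.92, 12.62 and 12.56 on db/db arrays. The groups did not overlap, and the high 18S arrays db/db 3 and db/db 4 were the lowest. Ssr4 fell by 0.46 (SE 0.11, 1.37-fold lower, adjusted p = 0.0342 by limma), with -0.27 within the low and -0.65 within the high 18S set. It is the least secure of the 5 calls: leaving out BKS 2, BKS 3, BKS 4, BKS 5, db/db 3 or db/db 4 raised its adjusted p above 0.05, to at most 0.116, and its other probe sets gave -0.67 and -1.01 at dimmer signal with overlap. Ssr3, the gamma subunit, was also lower on every db/db array, with a difference of -0.24 (adjusted p = 0.228) that did not pass. Ssr1 and Ssr2, the alpha and beta subunits, differed by -0.18 and -0.02.

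Signal peptidase had negative differences in 5 of 5 genes, with a median of -0.36, and 1 of them fell. Spcs3, an accessory subunit needed for cleavage, has a single probe set. It read 11.58, 12.02, 11.83, 12.05 and 11.89 on BKS arrays and 11.33, 11.26, 11.38 and 11.20 on db/db arrays. No array of one group reached the other. Spcs3 fell by 0.58 (SE 0.12, adjusted p = 0.0108 by limma), with -0.51 and -0.68 within the low and high 18S sets, and passed in 9 of 9 fits that left out 1 array.

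The catalytic subunits of signal peptidase are Sec11a and Sec11c. Sec11c had the larger difference of the 2, and its signal was 11.50, 11.10, 11.84, 12.27 and 11.91 on BKS arrays and 10.99, 10.49, 11.14 and 11.30 on db/db arrays. The groups overlapped because BKS 2 lay below db/db 3 and db/db 4. The difference was -0.75 (SE 0.22, adjusted p = 0.0707 by limma), similar within the sets at -0.74 and -0.87, and with the 18S set as a block it was -0.80 with an adjusted p of 0.0064. Sec11a differed by -0.36 (adjusted p = 0.153). The accessory subunits Spcs1 and Spcs2 differed by -0.12 and -0.23. Other probe sets gave 0.22 and 0.21 for Spcs1, -0.25 for Spcs2, -0.02 for Sec11a and -0.34 for Sec11c.

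In oligosaccharyltransferase the genes did not share a direction: 4 of 7 differences were negative, 3 were positive, and the median was -0.01. Rpn1, ribophorin I, which brings nascent glycoproteins to the enzyme, fell more than any other of the 55 genes. It read 13.05, 13.16, 13.03, 13.54 and 13.15 on BKS arrays and 12.01, 12.37, 12.35 and 12.32 on db/db arrays. The highest db/db array was well below the lowest BKS array. Rpn1 fell by 0.92 (SE 0.13, 1.89-fold lower, 95% interval -1.20 to -0.65, adjusted p = 7.89e-04 by limma), with -0.89 and -1.01 within the low and high 18S sets. It passed in 9 of 9 fits that left out 1 array, with adjusted p up to 0.00335.

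Rpn1 has 6 probe sets, and 5 of them had all db/db arrays below all BKS arrays, with differences of -0.95 to -0.45. Tested one by one over all probe sets, 3 of these passed (3.48% of all probe sets passed, 1.51% lower and 1.97% higher). The sixth was dim, with group means of 6.02 and 6.74 and wide spread (difference 0.73, 95% interval -0.82 to 2.28). The mean over all 6 was therefore smaller, -0.49 with an adjusted p of 0.0989. The brightest probe set, used here, is of a kind (suffix x) whose probes may also bind other transcripts. Of the 5 without overlap, only that with a difference of -0.61 is not of this kind. The brightest probe sets of Srp14 and Stt3a are of this kind too.

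Rpn2, ribophorin II, a partner subunit of Rpn1 in the same complex, did not show such a difference. It read 11.66, 11.89, 11.81, 11.97 and 11.89 on BKS arrays and 11.96, 11.79, 11.82 and 11.90 on db/db arrays. The groups overlapped throughout, and the difference was 0.02 with a 95% interval of -0.20 to 0.24 that does not meet the interval of Rpn1. Ddost, another subunit of the core, differed by 0.28, Dad1 by -0.01 and Ostc, which links the complex to the channel, by 0.22. Of the catalytic subunits, Stt3a, which works beside the channel, differed by -0.48 (adjusted p = 0.101; 0.0064 with the 18S set as a block), and Stt3b, which also glycosylates sites after translation, by -0.18. Their other probe sets did not share 1 direction: those of Stt3a gave -0.65, 0.09 and 0.32, and the second of Stt3b gave 0.46.

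**Figure D3:**
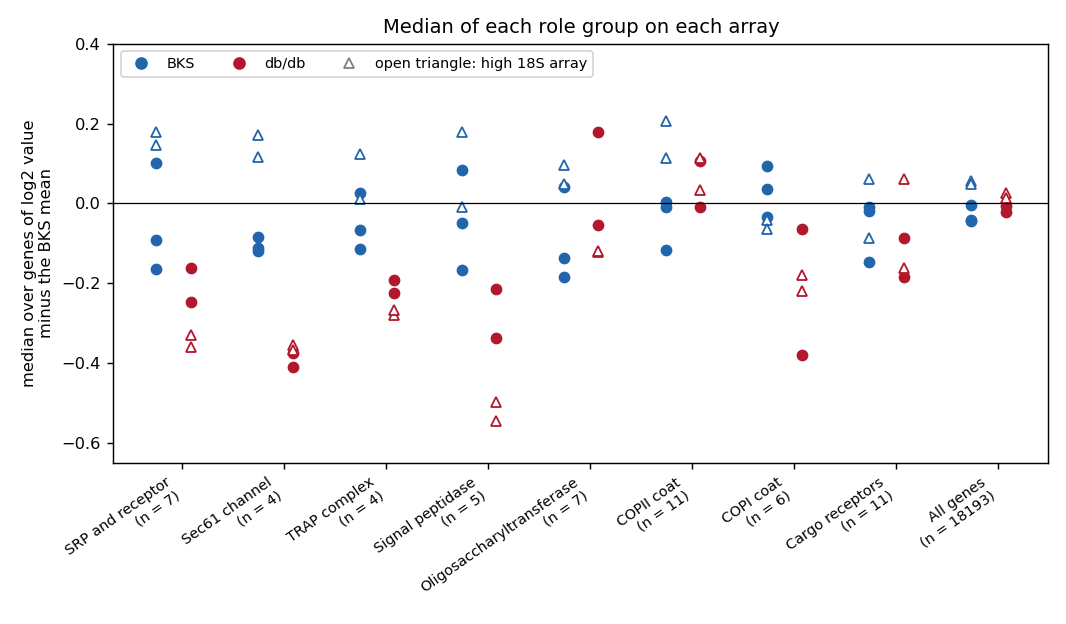
For each array (points; blue BKS, red db/db, open triangles high 18S arrays) the median over a role group's genes of the log2 value minus the BKS mean is shown, with all genes at the right. For the Sec61 channel the db/db arrays lie at -0.41 to -0.35 and the BKS arrays at -0.12 to 0.17, while for the COPII coat the db/db arrays (-0.01 to 0.12) lie within the BKS range (-0.12 to 0.21).

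Across the steps at the ER membrane, from the signal recognition particle to oligosaccharyltransferase, 5 of 27 genes fell (18.5%, beside 2.6% of all genes). Of the 27 differences 24 were negative, with a median of -0.24. Across coats and cargo receptors 0 of 28 passed in either direction, near the 5.49% of all genes that passed. There 17 differences were negative, and the median was -0.07. These groups were set by role, and no test compared them.

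The COPII coat had a median difference of 0.01 over 11 genes, of which 5 were negative and 6 positive. Its largest difference was in Sec24b, 1 of 4 cargo-binding coat proteins. Sec24b read 6.35, 8.79, 7.65, 8.35 and 8.13 on BKS arrays and 8.89, 8.84, 8.67 and 8.79 on db/db arrays. The BKS arrays were scattered (SD 0.93) and the db/db arrays close together (SD 0.095), and BKS 2 reached the db/db level. The difference was 0.94 (SE 0.39, adjusted p = 0.225 by limma), and the second, dimmer probe set gave 0.34.

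The other cargo-binding proteins, Sec24a, Sec24c and Sec24d, differed by -0.27, -0.03 and -0.10. Their partners Sec23a and Sec23b, which switch off the GTPase of the coat, differed by 0.08 and -0.27. The outer coat genes Sec13 and Sec31a were both higher in value, by 0.26 and 0.36 (adjusted p = 0.341 and 0.230). Sar1a and Sar1b, the GTPases that start the coat, differed by 0.01 and 0.20. Sar1b, known for its part in the export of large lipoproteins, was at 13.79 to 14.40 over the 9 arrays. Sec22b, a fusion protein of these vesicles, differed by -0.03.

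In the COPI coat 5 of 6 differences were negative, with a median of -0.21, and 0 of the 6 genes passed. Cope, the epsilon subunit, had the largest. It read 12.37, 12.88, 12.88, 12.69 and 13.01 on BKS arrays and 12.55, 12.23, 12.47 and 12.16 on db/db arrays. BKS 1 lay within the db/db values, and the other BKS arrays lay above all of them. The difference was -0.41 (SE 0.14, adjusted p = 0.117 by limma), and without BKS 1 the adjusted p was 0.0352. The zeta subunit Copz1 differed by -0.38 and the beta subunit Copb1 by -0.30, with adjusted p of 0.205 and 0.183. Arcn1 (delta), Copa (alpha) and Copb2 (the second beta) differed by -0.12, -0.01 and 0.14. Other probe sets gave 0.39 and 0.33 for Arcn1, -1.07 for Copa, 0.39 for Copb2 and -0.29 for Copz1.

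Cargo receptors had a median difference of -0.18 over 11 genes, 7 of them negative, and 0 passed. The KDEL receptors return chaperones that carry the ER retention signal. Kdelr3 was dim and read 4.94, 6.14, 6.19, 5.11 and 6.31 on BKS arrays and 6.39, 7.11, 6.83 and 6.37 on db/db arrays. Every db/db array was above every BKS array, the closest at 6.37 and 6.31, and the difference of 0.94 (SE 0.40, adjusted p = 0.231 by limma) did not pass. Kdelr1 differed by -0.18.

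Kdelr2 differed far more between the 18S sets than between the groups. It read 9.84, 9.73, 10.07, 12.21 and 12.11 on BKS arrays and 9.69, 9.15, 11.90 and 11.90 on db/db arrays. All low 18S arrays were at 9.15 to 10.07 and all high 18S arrays at 11.90 to 12.21, in both groups. The difference between groups was -0.14, with a wide 95% interval of -1.57 to 1.30. Within the low 18S set it was -0.47 and within the high set -0.26, and with the 18S set as a block -0.37 (adjusted p = 0.107 by limma). The second Kdelr2 probe set did not show the step and gave a difference of 0.06. As the mean of the steps in BKS and in db/db, the high 18S arrays were 2.38 above the low ones. No other of the 55 genes had a mean step over 1 on the log2 scale (1.82% of them against 5% of all genes), though within BKS alone Tmed9, Tmed3 and Srprb were 1.32, 1.28 and 1.20 higher on the high 18S arrays.

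The Tmed genes encode p24 proteins, which sort membrane-anchored cargo into vesicles. Tmed3 read 10.00, 10.67, 10.02, 11.67 and 11.34 on BKS arrays and 10.11, 10.06, 10.09 and 10.15 on db/db arrays. As with Srprb, the high 18S arrays BKS 4 and BKS 5 stood above the rest, while the high 18S db/db arrays did not. The difference was -0.64 (adjusted p = 0.293), made up of -0.15 within the low and -1.39 within the high 18S set. Tmed9 showed 0.03 and -0.72 in the same sets, and Tmed2, which was dim, 0.33 and -1.15. Tmed10 differed by 0.03.

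The remaining receptors carry soluble secreted proteins. Surf4, a receptor for lipoproteins and other secreted proteins, was lower on all db/db arrays but by little, 12.15 to 12.21 against 12.23 to 12.62 (difference -0.19, adjusted p = 0.394). That holds for its brightest probe set. The others overlapped between the groups and gave 0.10, -0.18, 0.004 and -0.39. Lman1 and Mcfd2 form the receptor for clotting factors V and VIII. On their brightest probe sets they differed in opposite directions, by -0.22 and 0.17, and neither passed. The other Lman1 probe sets did not share 1 direction and gave 0.14, 0.02, -0.02 and -0.64. Lman2, a lectin of the same family as Lman1, differed by 0.21.

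**Figure D4:**
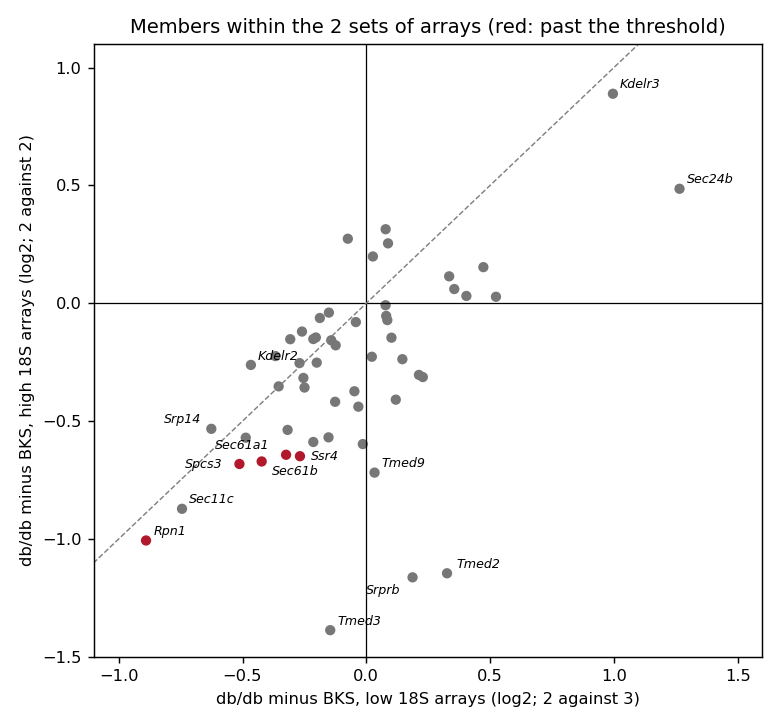
Each point is 1 of the 55 genes, with the difference db/db minus BKS within the low 18S arrays on the x axis and within the high 18S arrays on the y axis, both on the log2 scale; red marks the 5 genes that fell and the dashed line marks equal values. The 5 red points lie in the lower left part, while Srprb, Tmed2 and Tmed9 lie to the right of 0 and well below it.

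Within the 18S sets, 32 of the 55 genes were negative in both and 10 positive in both. The median difference was -0.12 within the low set and -0.25 within the high set, beside 0.02 and -0.04 over all genes. With the 18S set as a block the 5 genes stayed past the threshold (adjusted p from 2e-04 for Rpn1 to 0.0186 for Ssr4), and Srp14, Sec11c and Stt3a also passed. That fit called 8.23% of all genes, 4.13% lower and 4.11% higher. The low 18S arrays alone called only Rpn1 (adjusted p = 0.0198), and the high 18S arrays alone called 9 of the 55, all lower: the 5 and Sec11c, Srprb, Tmed3 and Tmed9. Of all genes, 1.21% were called lower on the low and 1.23% on the high 18S arrays alone. The difference between sets was not tested.

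Of 141 other genes of the pathway, listed by role, 137 were measured, and 5 rose and 16 fell (3.65% and 11.7%, beside the 2.89% and 2.6% of all genes). The median difference was -0.07. With median centring only 3 rose and 3 fell. The list with the most calls was that of regulators of secretory capacity, the sensors, transcription factors and chaperones of the unfolded protein response, where 8 of 19 fell and 0 rose, with a median of -0.34. Xbp1, a transcription factor that raises expression of ER and secretory genes, read 14.45, 14.20, 14.06, 14.41 and 14.41 on BKS arrays and 13.41, 13.25, 13.34 and 13.44 on db/db arrays. The groups were well apart, and Xbp1 fell by 0.95 (SE 0.11, adjusted p = 1.83e-04 by limma; 0.125 with median centring).

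Sdf2l1, a partner of the ER chaperone Hspa5, read 9.72, 9.80, 9.39, 10.16 and 11.08 on BKS arrays and 7.81, 6.81, 7.70 and 7.76 on db/db arrays. No BKS array came near the db/db values, and Sdf2l1 fell by 2.51 on the log2 scale, more than any other gene of these lists (SE 0.32, 5.69-fold lower, adjusted p = 4.52e-04 by limma). The sensor Ern1, which splices Xbp1 RNA, the chaperones Hspa5 and Hsp90b1 and the folding helpers Dnajb11, Pdia6 and Manf fell too. Their differences were -0.60, -0.65, -0.67, -0.80, -0.85 and -0.91 in that order. Of these, only Hsp90b1 overlapped between the groups. Among the 19 regulators 13 differences were negative and 6 positive, the largest positive one that of the sensor Atf6. It was 0.53 (adjusted p = 0.0988 by limma) and did not pass. With the 18S set as a block it was 0.49 with an adjusted p of 0.0307, past the threshold as higher.

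Among 28 genes of sugar-chain synthesis and lectin-assisted folding 5 fell and 0 rose. Krtcap2, a further subunit of oligosaccharyltransferase, read 12.32, 11.78, 12.14, 12.40 and 12.12 on BKS arrays and 11.26, 11.23, 11.22 and 11.42 on db/db arrays. It fell by 0.87 (SE 0.13, adjusted p = 0.00145 by limma), and its second probe set gave -0.20. Mogs, the glucosidase that trims the first glucose from new sugar chains, fell by 0.81 (adjusted p = 0.00483 by limma). Alg10b, which completes the sugar chain before transfer, fell as well (-0.86), as did Magt1, a subunit of the Stt3b form of the enzyme (-0.52), and the lectin chaperone Calr (-0.41). The same list holds 2 more subunits of oligosaccharyltransferase, Tusc3 and Tmem258, which differed by 0.36 and 0.12 (adjusted p = 0.585 and 0.909) and did not pass.

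Genes around the coats moved in both directions. Among 17 further cargo receptors and adaptors 3 fell: Lman2l, an ER lectin related to Lman2 (-0.83), the p24 protein Tmed7 (-0.72) and the ER-to-Golgi membrane protein Yipf5 (-0.78). The second Lman2l probe set gave 0.07, and the 4 others of Tmed7 gave -1.21, -0.31, -0.11 and 0.05. Among 11 further COPI and Arf genes 2 rose, with a median of -0.35: Copz2, a second form of the zeta subunit, rose by 0.91 (adjusted p = 0.00362 by limma) and Arf1, the GTPase that recruits the coat, by 0.61 (adjusted p = 0.00572 by limma). The other Arf1 probe sets gave 0.12 and 0.38. Among 11 genes listed under ER exit sites Tango2, named for transport and Golgi organisation, rose by 0.94 and Sec16b, a scaffold of exit sites, by 0.43. The second Tango2 probe set gave 0.33. Whether Tango2 acts at exit sites was not tested. Sec16b no longer passed when any array other than BKS 3 was left out, with an adjusted p of up to 0.0941. Of 25 fusion, tethering and Rab genes only Trappc5, a tether subunit, passed, higher by 0.72 (adjusted p = 0.0134; 0.0578 without db/db 3), and its second probe set gave -0.07. Of 21 further translocation factors and 5 cargo genes 0 passed, with medians of 0.02 and -0.07.

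**Figure D5:**
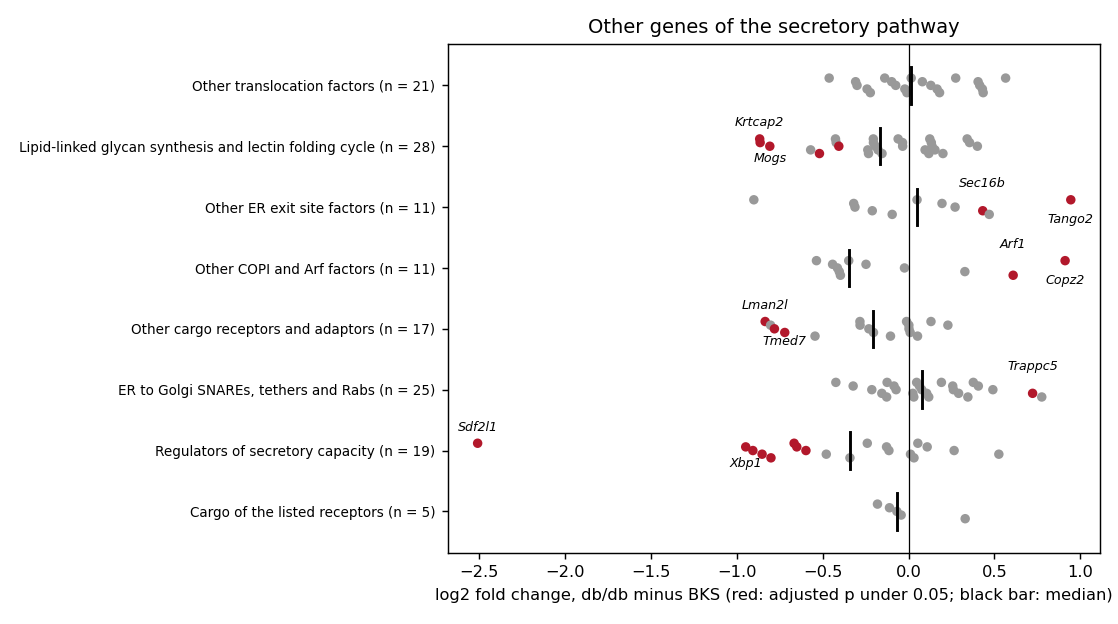
Each point is 1 of the 137 other pathway genes, placed by its log2 fold change (db/db minus BKS) in the row of its list; red marks an adjusted p under 0.05 and the black bar the median of the list. The row of regulators holds 8 red points left of 0, with Sdf2l1 at -2.51. The red points in the rows listed as ER exit site, COPI and tethering genes lie right of 0.

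Promoter sequence was compared for letters that the unfolded protein response factors are known to bind. RefSeq promoters (GRCm38.p6, 250 bases before to 50 after the annotated start) were held for 46 of the 57 genes, with Spcs3 and Sec61a1 not among them. The motifs searched on both strands were the UPRE core TGACGTG, the ERSE (CCAAT, then 9 bases of any kind, then CCACG) and the ERSE-II (ATTGG, 1 base of any kind, then CCACG). They can share the letters CCACG but were counted separately. A match is a description of the letters and not a bound site. The UPRE core was present in 6 of the 46 genes (13%), namely Copb1, Copb2, Kdelr3, Sec23a, Sec24d and Srpr, beside 2.84% of the 14452 tested genes with a promoter. None of the 6 passed the test. The ERSE and the ERSE-II were in 0 of the 46. The windows around the UPRE core of 5 of these genes, which show the shared letters in capitals (CACGTCA where the match is on the opposite strand), are as follows.
Srpr (chr9:35211165-35211202, plus strand): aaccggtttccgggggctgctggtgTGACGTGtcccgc
Sec24d (chr3:123267445-123267495, plus strand): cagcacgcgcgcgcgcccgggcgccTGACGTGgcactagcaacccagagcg
Copb1 (chr7:114254681-114254732, minus strand): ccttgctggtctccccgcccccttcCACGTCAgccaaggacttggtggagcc
Copb2 (chr9:98563720-98563736, plus strand): agttcCACGTCAgtggg
Kdelr3 (chr15:79516354-79516407, plus strand): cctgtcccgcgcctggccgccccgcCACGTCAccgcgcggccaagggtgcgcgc

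The promoter of Rpn1, the gene that fell most, held a CCAAT box and a CCACG box upstream of the start, in capitals, but not at the spacing of an ERSE. The 250 bases before its start are printed to show their order.
Rpn1 (chr6:88084223-88084472, plus strand): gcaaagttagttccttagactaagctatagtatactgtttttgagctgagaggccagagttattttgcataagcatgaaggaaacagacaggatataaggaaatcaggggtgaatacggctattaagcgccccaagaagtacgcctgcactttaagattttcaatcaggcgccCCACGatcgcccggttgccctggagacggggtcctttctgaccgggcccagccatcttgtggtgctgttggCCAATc
The CCAAT box on either strand was in 47.8% of the 46 genes and 42% of all tested genes, and the CCACG box in 67.4% and 45.9%.

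Among the 121 other pathway genes with a promoter, 6 held an ERSE (4.96%, beside 0.138% of tested genes) and 3 an ERSE-II (2.48%, beside 0.0623%). Of these, 3 with an ERSE and 2 with an ERSE-II were on the list of regulators, which was made up of unfolded protein response genes. The shares depend on this choice of genes and were not tested. The ERSE was in Hspa5, Pdia6, Hsp90b1, Calr, Canx and Alg12, of which the first 4 fell, and the ERSE-II in Krtcap2, Dnajb11 and Herpud1, of which the first 2 fell. The UPRE core was in 10 of the 121 (8.26%), among them Mogs and Hspa5, which fell, and Arf1 and Sec16b, which rose. The windows of 4 genes that fell show the ERSE (Hspa5, Pdia6) and the ERSE-II (Krtcap2, Dnajb11) in capitals, the last 2 with only 5 bases on each side because they lie past the start.
Hspa5 (chr2:34772000-34772068, plus strand): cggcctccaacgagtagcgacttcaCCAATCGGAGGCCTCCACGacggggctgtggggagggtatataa
Pdia6 (chr12:17266466-17266534, plus strand): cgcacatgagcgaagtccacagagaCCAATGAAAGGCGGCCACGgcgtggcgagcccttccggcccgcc
Krtcap2 (chr3:89246485-89246505, plus strand): cacggATTGGACCACGgacgg
Dnajb11 (chr16:22857847-22857867, plus strand): cggcgATTGGCCCACGcctgg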

How the data were processed

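Liver RNA was labelled with biotin and hybridised to 1-colour Affymetrix arrays, per the labels' protocols. The deposited table holds 1 linear intensity per probe set on each of 9 arrays, scaled to a 2% trimmed mean of 500.003 to 500.005; which software made it is not stated in those sources. Precision is limited by the 9 arrays. Intensities were taken as log2(value + 16), which lowers the fold changes of dim genes. The medians of the arrays differed by up to 0.60 (limit 0.25), so they were quantile normalized (limma 3.58.1, R 4.3.3). Of 45101 probe sets, 34945 with 1 gene symbol were used (932 had several), and the brightest represented its gene. Each gene was tested, two-sided, by lmFit and eBayes with trend, Benjamini-Hochberg adjusted over 18193 genes; the scripts were tested on simulated data. Array values were given for genes past the threshold, for the largest difference in role groups without one, and, chosen after their values were seen, for Srprb, Sec11c, Rpn2, Kdelr2 and Tmed3. In other pathway lists, the smallest adjusted p were named, up to 2 per direction; further genes were named for their role. Genes and lists were chosen with earlier results of these data known, as was the 18S split. Alternatives changed the amount added, normalization, filter, probe set rule, model, arrays and blocks.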

Additional observations from a re-analysis of the deposited data

Results flagged for a closer look

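Among 26 groups of array values checked for a single array far from the rest, 2 were set apart by Dixon's criterion, which picks out about 1 in 20 groups by chance, and both belong to Rpn1. On BKS 4 its log2 signal was 13.54, and the next BKS array was at 13.16 and the lowest at 13.03. On db/db 1 it was 12.01, and the other db/db arrays were at 12.32 to 12.37. Both arrays lie away from the other group, so each widens the difference. Without BKS 4 or db/db 1, as without any other array, Rpn1 stayed past the threshold, with a difference of -0.97 to -0.82 over the 9 fits.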

How the results depend on the processing

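The counts moved more than the directions. The number of the 55 genes that fell, 5 as reported, was 2 with no normalization between arrays, 0 with median centring, 2 with the probe set of largest variance, 2 with the mean of probe sets, 1 with no trend, 8 with the 18S set as a block, 1 on the low 18S arrays alone, 9 on the high 18S arrays alone and 3 to 6 when 1 array was left out. The number that rose was 0 under each of these settings. With the probe set of largest variance and with the mean of probe sets, the 2 that passed were Sec61b and Spcs3. Both have 1 probe set, so these settings could not change their differences. Rpn1, Sec61a1 and Ssr4, which have more, lost the call under both. The median difference over the 55 genes, -0.18 as reported, was -0.080 with median centring and -0.11 with the mean of probe sets. It was -0.26 on the high 18S arrays alone and -0.21 to -0.14 when 1 array was left out. Median centring moved the median of all genes to 0.04.

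Of the other pathway genes, 5 rose and 16 fell as reported. Median centring gave 3 and 3, the probe set of largest variance 8 lower, the mean of probe sets 3 and 9, no trend 2 and 7, the 18S block 8 higher, the low 18S arrays 3 and 7, the high 18S arrays 0 and 9, and leaving out 1 array 3 to 5 and 10 to 17. Over all genes, 526 higher and 473 lower as reported, the counts were 323 and 212 with median centring, 254 and 212 with no trend, 216 and 220 on the low 18S arrays, and 241 and 224 on the high 18S arrays. Lower calls were 260 with the probe set of largest variance, 273 with the mean of probe sets and 751 with the 18S block. Leaving out 1 array gave 309 to 519 higher and 283 to 434 lower; db/db 3 gave the lowest of both.

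With the probe set of largest variance the differences of Rpn1 (0.73) and Lman2l (0.071) reversed, since another probe set stands for the gene. Over single genes and settings, 393 values kept direction and side of the threshold, 77 lost the call, 7 gained it and 2 reversed; the cause was not tested.

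Array numbers were not taken as pairs: deviations from the group means correlated by 0.03, 0.17, -0.07 and 0.13 for numbers 1 to 4. With the replicate block, 7 of the 55 genes fell, Ssr4 (adjusted p = 0.0811) not among them, and 1146 genes were called in all against 999. Without detection calls, dim genes such as Kdelr3 and Tmed2 (mean log2 under 7) cannot be told from background.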
